A study of Homo sapiens with 2 samples.

Results

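The cells described here are untreated A375 melanoma cells with the most RNA of 4 heat-shock genes: HSPA1A and HSPA1B, which encode the inducible HSP70, DNAJB1, an HSP40 cochaperone, and HSPH1, the HSP110 chaperone. They were chosen from parental barcodes with at least 5000 UMIs and at most 20% of UMIs from mitochondrially encoded genes. A UMI is one counted molecule. The summed UMIs of the 4 genes per 10000 UMIs of a cell served as the score, and the top 10% of cells by that score were taken. This gave 909 of 9094 parental cells that passed the filter, out of 10751 parental barcodes and 17895 barcodes in the series. They are called HS-high cells below, and the remaining 8185 parental cells, the other cells, are what they are compared with. The score is how the cells were chosen and is not a finding.

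The study profiled single cells of A375, a human melanoma cell line, by 10x Chromium 3' v3 RNA sequencing. The persister sample held A375 cells alive after 15 days with cytotoxic T lymphocytes (CTLs) directed at the antigen NY-ESO-1, with interleukin 2 at 7.5 ng/mL and fresh CTLs every 3 days. The parental sample was left untreated, and the labels do not say whether it received interleukin 2. Each group was 1 library, so no difference below has a replicate check, and none was tested. The intervals given are 95% exact intervals and cover counting error only.

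HSP70 proteins bind unfolded stretches of other proteins, HSP40 proteins hand them clients and drive their ATP use, and HSP110 proteins exchange their nucleotide. The factor HSF1 drives these genes when proteins misfold, through heat-shock elements, which are repeats of the letters GAA and their reverse complement TTC. Without stress, many of the same chaperones are made constitutively, and HSP70 levels are also known to vary over the cell cycle.

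The promoter sequences of 4 chaperone genes are shown because the genes of the score and their relatives can be compared there by letter. HSPA1B and DNAJB1 belong to the score. HSPA8, the constitutive HSP70, and HSP90AA1, the inducible HSP90, do not, and are described below. Each line gives the 120 bases before an annotated transcription start, read 5′ to 3′ along the gene's strand, from RefSeq on GRCh38.p14. Capitals mark every match to GAANNTTC or TTCNNGAA, where N is any base, so that 2 inverted units lie next to each other. Each pattern is its own reverse complement, so 1 search covers both strands, and overlapping matches were all counted.
HSPA1B (chr6:31827618-31827737, plus strand): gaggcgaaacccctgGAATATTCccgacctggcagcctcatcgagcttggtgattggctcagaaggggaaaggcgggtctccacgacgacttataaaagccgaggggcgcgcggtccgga
DNAJB1 (chr19:14518398-14518517, minus strand): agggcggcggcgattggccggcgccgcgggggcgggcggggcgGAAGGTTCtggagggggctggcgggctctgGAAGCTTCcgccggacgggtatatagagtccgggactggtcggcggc
HSPA8 (chr11:123062137-123062256, minus strand): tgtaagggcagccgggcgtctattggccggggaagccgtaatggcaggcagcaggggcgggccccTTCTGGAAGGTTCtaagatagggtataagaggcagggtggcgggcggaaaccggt
HSP90AA1 (chr14:102087045-102087164, minus strand): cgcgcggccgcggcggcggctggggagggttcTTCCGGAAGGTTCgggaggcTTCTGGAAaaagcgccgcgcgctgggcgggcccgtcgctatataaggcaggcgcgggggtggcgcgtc

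In the 250 bases before the start, HSPA1A and HSPA1B each had 1 match, DNAJB1 had 2 at the start shown, 1 of 3 annotated, and HSPH1 had 0. HSPA8 had 4, of which the printed window shows the pair nearest the start. A match to 2 units is common: 11.6% of all 35116 promoter windows of this length hold one. A run of 3 units, GAANNTTCNNGAA or TTCNNGAANNTTC, which are reverse complements of each other and so cover both strands, is rare, at 0.441% of windows. It was present in HSPA8 and HSP90AA1 and in 6 of the 53 measured chaperone genes with a window (11.3%), against 0.422% of all measured genes. The other 4 chaperone genes with such a run were HSP90AB1, HSPD1, CHORDC1 and DNAJB6. The 4 genes of the score had none, and neither did the 45 measured genes of the G2 and M phase list, of which 7 had a 2-unit match. These matches are descriptions of letters in a window, not binding sites.

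The score fell on a continuous range, with no gap at the cut. Its lowest, median and highest values were 9.64, 11.2 and 24.7 per 10000 UMIs in HS-high cells, and 0, 4.93 and 9.64 in the other parental cells. Within 1 unit of the cut lay 300 cells above it and 524 below it. In counts, the score rested on a median of 10 UMIs in an HS-high cell and 4 UMIs in another cell. The name used here is therefore that of the upper end of a range of low counts, not of a separate cluster or state.

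**Figure D1:**
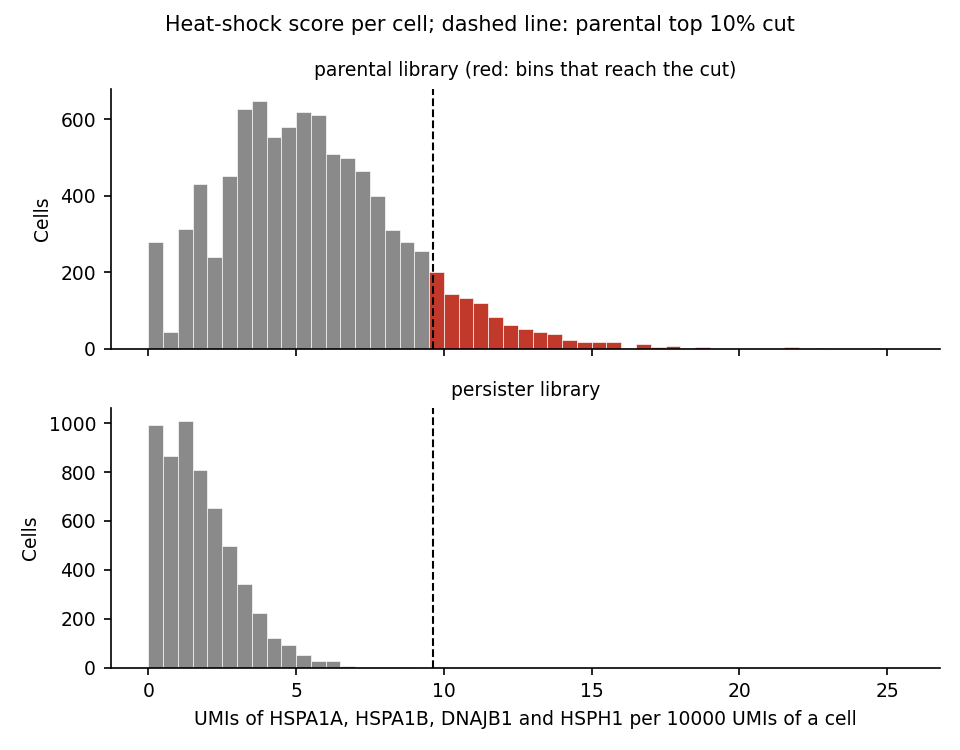
Number of cells (vertical axis) by summed UMIs of the 4 heat-shock genes per 10000 UMIs (horizontal axis, bins of 0.5) in the parental library, above, and the persister library, below. The dashed line is the parental cut. Parental counts decline smoothly across it, and only 3 of 5744 persister cells reach it.

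General features of these cells were close to those of the rest. They are not all independent of the choice: total UMIs are the denominator of the score, and depth and mitochondrial share set the filter. Median depth was 8292 UMIs in HS-high cells and 8144 UMIs in the other cells, with 2819 genes detected in HS-high cells and 2760 in the other cells. Mitochondrially encoded UMIs took a median of 5.58% in HS-high cells and 5.94% in the other cells, and ribosomal protein UMIs took 20.6% in HS-high cells and 21.2% in the other cells. The share of HS-high cells was 5.39% (4.01 to 7.06%) in the deepest decile of parental cells and between 7.69% and 12.7% in the other deciles. The highest total UMI count was 19986 in HS-high cells and 30431 in the other cells. Doublets were not removed. Of all barcodes, 38 occurred in both libraries, 2 of them in HS-high cells.

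The cells had the melanoma profile of the line. Of 24 melanoma markers, 19 were measured, meaning at 10 counts per 1000000 UMIs (CPM) or more in either group. SOX10, a neural crest transcription factor, was at 94.7 CPM in HS-high cells and 99.8 CPM in the other cells. The pigment genes MLANA and TYR had 0 UMIs in both, and the list summed to 12340 CPM in HS-high cells and 13489 CPM in the other cells, a ratio of 0.915. S100A6, a calcium-binding protein, made up most of that sum, at 6443 CPM in HS-high cells and 7572 CPM in the other cells. Without it, a split made after seeing the data, the list summed to 5897 CPM in HS-high cells and 5918 CPM in the other cells. T cell markers were nearly absent: CD3D, CD3E, CD3G and 15 other genes of the 24 had 0 UMIs in HS-high cells. The list summed to 32.3 CPM there and 36.1 CPM in the other cells, most of it IL7R, at 28.5 CPM in HS-high cells and 31.8 CPM in the other cells. At least 2 T cell markers were detected in 5 of 909 HS-high cells and 101 of 8185 other cells. Of 8 fibroblast markers none reached 10 CPM: they summed to 2.78 CPM in HS-high cells and 4.11 CPM in the other cells, with COL1A2, COL3A1, FAP and POSTN at 0 UMIs in HS-high cells.

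HSPH1 made up most of the score. It lies on chromosome 13 (31134974 to 31162388, minus strand, GRCh38) and took 61.2% of the 4 genes' UMIs in HS-high cells and 63.2% in the other cells. HSPH1 was at 716.1 CPM in HS-high cells and 317.6 CPM in the other cells. DNAJB1 (chromosome 19, 14514770 to 14529770, minus strand) was at 278.5 CPM in HS-high cells and 124.2 CPM in the other cells. HSPA1A (chromosome 6, 31815464 to 31817946, plus strand) was at 116.2 CPM in HS-high cells and 38.9 CPM in the other cells. HSPA1B (chromosome 6, 31827735 to 31830255, plus strand) was at 58.6 CPM in HS-high cells and 21.7 CPM in the other cells. The rule fixes these differences, which came to ratios of 2.98 for HSPA1A, 2.70 for HSPA1B, 2.26 for HSPH1 and 2.24 for DNAJB1.

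At this depth UMIs of all 4 genes were seldom found in 1 cell. UMIs of all 4 genes were found in 63 HS-high cells (6.93%) and 54 other cells (0.660%), and 100 HS-high cells (11%) had UMIs of 1 gene only. HSPA1B had 463 UMIs in all in the 909 HS-high cells, so a cell without a UMI is not shown to lack the transcript. With every cell thinned at random to 5000 UMIs, HSPA1A was detected in 40.3% (37.1 to 43.5%) of HS-high cells and 16.9% (16.1 to 17.7%) of the other cells. Without thinning, these shares were 56.5% in HS-high cells and 27.0% in the other cells. HSPH1 was detected in 97.6% of thinned HS-high cells and 78.4% of the other cells. The parental library has no cell type that should lack these genes, so a background share from free RNA could not be set beside these values. HSPA6, an HSP70 gene that is nearly silent without strong stress, had 4 UMIs in HS-high cells and 22 in the other cells, each in a different cell. HSPA1A and HSPA1B encode near-identical proteins, and their longest annotated transcripts were 88.4% identical over 2606 aligned positions. Their last 400 bases, from which a 3' library mainly reads, were 48.6% identical. How reads that match both were counted is not stated.

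The rule and the ratios above use the same few UMIs, so the genes were also read where the choice had not used them. Each UMI was assigned at random to set A or set B with equal odds, the top 10% of cells were chosen on set A, and levels were read on set B. The 4 genes together then stood at 709.4 CPM in the chosen cells and 552.9 CPM in the other cells, a ratio of 1.28 (1.23 to 1.34) in place of 2.33. The ratio was 1.52 for HSPA1A, 1.43 for HSPA1B, 1.29 for HSPH1 and 1.16 (1.06 to 1.26) for DNAJB1. Of the 909 cells chosen on set A, 164 (18.0%, 15.6 to 20.7%) were also in the top 10% by set B, against 10.0% of all cells. Set B held a median of 4084 UMIs a cell, less than the full counts used elsewhere.

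Read the other way, each gene was higher in cells chosen by the remaining 3, a choice of cells added after seeing the data. HSPA1A was then at 67.7 CPM in the chosen cells and 44.1 CPM in the other cells, a ratio of 1.53 (1.40 to 1.68). HSPA1B had a ratio of 1.58 (1.39 to 1.79), DNAJB1 of 1.21 (1.14 to 1.29) and HSPH1 of 1.13 (1.08 to 1.17). The choice for each inducible HSP70 gene included its near-identical copy. In cells chosen by DNAJB1 and HSPH1 alone, HSPA1A had 1.37 (1.24 to 1.51) and HSPA1B 1.28 (1.12 to 1.47). In cells chosen by HSPA1A and HSPA1B alone, DNAJB1 had 1.33 (1.26 to 1.41) and HSPH1 1.12 (1.08 to 1.16). Across all thinned parental cells, the variance over the mean of the summed 4 genes was 1.23 at a mean of 2.80 UMIs, where counting alone gives 1.

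**Figure D2:**
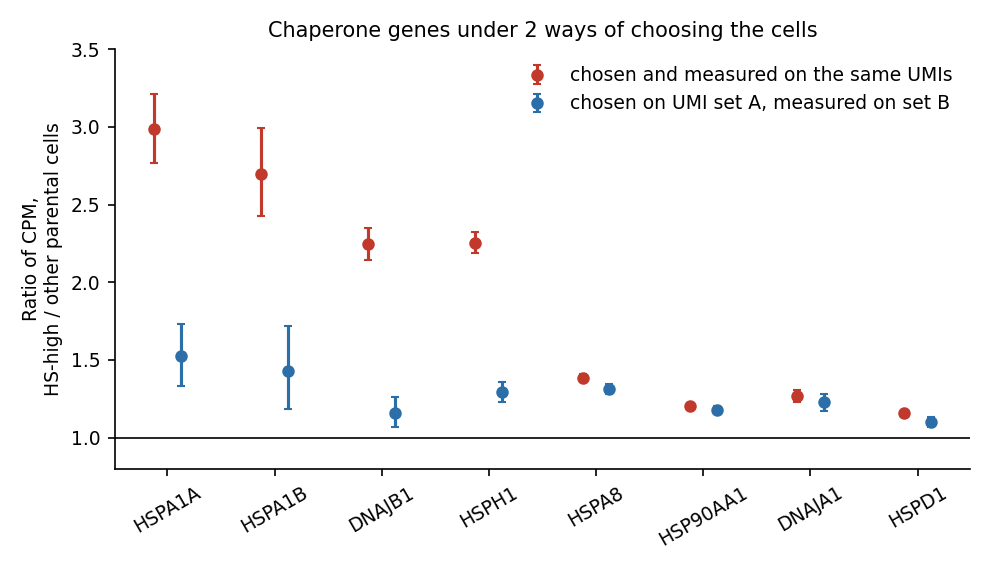
Ratio of CPM (vertical axis), HS-high cells over other parental cells, for 4 genes of the score and 4 other chaperone genes, with 95% counting intervals. Red points choose and measure on the same UMIs, and blue points choose on set A and measure on set B. HSPA1A stands at 2.98 in red and 1.52 in blue, while HSPA8 stands at 1.39 in red and 1.31 in blue.

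Across all genes HS-high cells and the other cells were much alike. Of 7649 measured genes, 96.1% lay within 1.25-fold and the median log2 ratio was 0.03. At least 1.5-fold higher in HS-high cells were 5 genes (0.0654%), which were the 4 of the score and ATXN1L, and at least 1.5-fold lower were 8 genes (0.105%). At 1.25-fold and 50 CPM or more, a limit set after seeing the data, 57 of 2938 genes were higher (1.94%) and 5 lower (0.17%). Of the 57, 4 belong to the score, 41 to the lists of G2 and M phase genes and other mitotic regulators, and 2 to the chaperone lists. The remaining 10 were in neither kind of list: INCENP, RACGAP1, SGO2, PIF1, ARHGAP11A, ATF7IP, LMNB1, DDX10, UTP20 and EED. Of these, INCENP, RACGAP1 and SGO2 act at the centromere or in cell division. With the cell cycle matching described below, the ratios of the 10 ran from 0.993 for SGO2 to 1.24 for UTP20 and 1.26 for EED. These 10 genes were named after their values were seen.

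**Figure D3:**
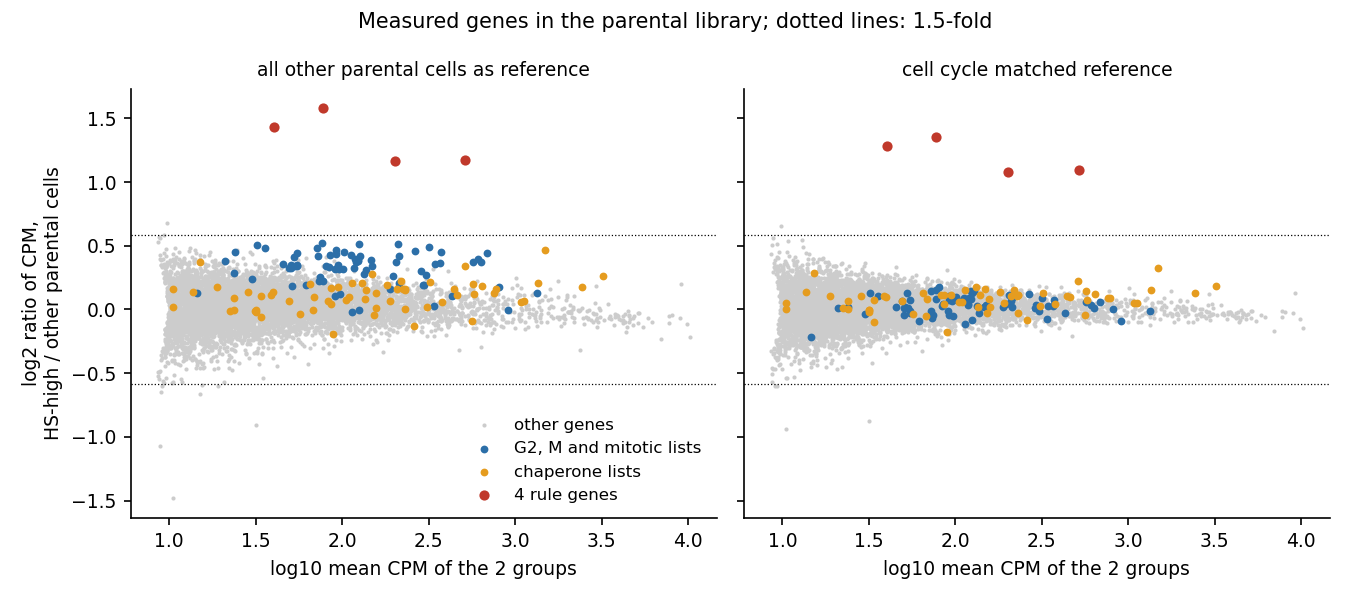
Log2 ratio of CPM (vertical axis), HS-high cells over other parental cells, against the log10 mean CPM of both groups (horizontal axis) for measured genes with UMIs in both. The left panel uses all other cells as the reference and the right panel uses other cells weighted to the same cell cycle stage; dotted lines mark 1.5-fold. Most blue G2, M and mitotic genes lie above 0 on the left, with PLK1 at 0.51, and near 0 on the right, with PLK1 at 0.13.

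Among the 6 chaperone lists, most members were slightly higher in HS-high cells. Leaving out the 4 genes of the score, 63 of 77 listed genes were measured, 51 had a ratio above 1, 3 reached 1.25 and 0 were that far lower. The background at that fold and 10 CPM was 2.27% of genes higher and 1.63% lower. Summed, these genes stood at 22799 CPM in HS-high cells and 20235 CPM in the other cells, a ratio of 1.13. Without HSPA8 and HSP90AA1 the sum was 17574 CPM in HS-high cells and 16075 CPM in the other cells, a ratio of 1.09. The median log2 ratio of the 63 measured members was 0.12, against 0.03 over all measured genes. A rise of this kind was not particular to chaperones. The splicing and nuclear RNA list had a summed ratio of 1.12, with 17 of 20 measured genes above 1. Translation factors had 1.07, with 12 of 13 above 1, while the glycolysis and hypoxia list had 1.01, with 14 of 16.

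HSPA8 had the largest ratio among these, and it held most of the difference in its list: the other HSP70 and HSP110 genes outside the score summed to 521.1 CPM in HS-high cells and 455.4 CPM in the other cells, a log2 ratio of 0.19. That split was made after seeing the data. HSPA8 carries the constitutive share of HSP70 work in unstressed cells. Its level was 1725 CPM in HS-high cells and 1245 CPM in the other cells, a ratio of 1.39 (1.36 to 1.41). Its level was higher in each successive decile of parental cells by score, with 1038 CPM in the lowest, 1244 CPM in decile 5, 1503 CPM in decile 9 and 1725 CPM in the highest, the HS-high cells. Median depth was 6902 UMIs in the lowest decile and between 7858 and 8758 UMIs in the others, and its part was not tested. HSPA13, a minor HSP70 relative of microsomes, had a ratio of 1.29 (1.07 to 1.55), and HSPA9, the mitochondrial HSP70, of 1.17.

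Among HSP40 genes, DNAJA1, the cytosolic partner of HSPA8, was at 573.5 CPM in HS-high cells and 452.8 CPM in the other cells, a ratio of 1.27 (1.23 to 1.31). In the HSP90 list, HSP90AA1 was at 3500 CPM in HS-high cells and 2915 CPM in the other cells, a ratio of 1.20. HSP90AB1, the constitutive HSP90, had 1.13, the cochaperone CHORDC1 1.21 and the adaptor STIP1, which links HSP70 to HSP90, 1.16. HSPD1, the mitochondrial HSP60, had 1.16 and its partner HSPE1 1.04.

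BAG3, HSPB1 and SERPINH1, other classic targets of the heat-shock response, had ratios from 1.01 to 1.15. These overlap the ratios of HSPE1, HSP90AB1, STIP1 and HSPD1 above, and BAG3 and HSPB1 belong to the chaperone lists. BAG3, a nucleotide exchange factor for HSP70, was at 69.9 CPM in HS-high cells and 60.8 CPM in the other cells, a ratio of 1.15 (1.05 to 1.25). HSPB1, the small chaperone HSP27, had 1.01 (0.971 to 1.06). SERPINH1, a collagen chaperone, had 1.11 (1.00 to 1.23). Transcripts of HSF1 itself were at 46.9 CPM in HS-high cells and 43.9 CPM in the other cells, and HSF2, a related factor, had 0.812 (0.628 to 1.04). In the list of other heat-induced genes, 18 of 21 were measured and 2 reached 1.25-fold, against 2.27% of all measured genes. These were CLK1, a splicing kinase, at 1.35 (1.13 to 1.60) and JMJD6, an oxygenase, at 1.28 (1.12 to 1.46).

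Cell cycle stage went along with the score. MKI67, a proliferation marker, was at 387.5 CPM in HS-high cells and 303.2 CPM in the other cells, a ratio of 1.28 (1.23 to 1.33). TOP2A, a topoisomerase of G2 and mitosis, was at 692.5 CPM in HS-high cells and 525.5 CPM in the other cells, a ratio of 1.32. CCNB1, the mitotic cyclin, was at 430.6 CPM in HS-high cells and 314.5 CPM in the other cells, a ratio of 1.37. PLK1, a mitotic kinase, was at 147.5 CPM in HS-high cells and 103.4 CPM in the other cells, with the largest ratio of the 4, 1.43 (1.34 to 1.52). UMIs of all 4 were detected in 32.7% (29.6 to 35.8%) of HS-high cells and 21.4% (20.5 to 22.3%) of the other cells, and of none in 1.65% of HS-high cells and 6.10% of the other cells.

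The G2 and M phase list as a whole was higher too. Of its 54 genes, all measured, 33 were at least 1.25-fold higher in HS-high cells and 0 lower, with a median log2 ratio of 0.35. Over all measured genes, 2.27% were that far higher and 1.63% lower, which is the background for each count in this paragraph. Of 20 mitotic regulators outside that list, 12 were higher and 0 lower, among them KIF14, a mitotic kinesin, at 1.44, and ASPM, a spindle pole protein, at 1.41. AURKA, the Aurora A kinase, had a ratio of 1.43 (1.36 to 1.5). In the S phase list, 0 of 42 measured genes reached 1.25-fold in either direction, and the sum had a ratio of 1.04. UHRF1, which maintains DNA methylation at replication forks, had the highest, 1.20.

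Some cell cycle inhibitors were lower. CDKN1A, the p21 inhibitor of cyclin-dependent kinases, was at 28.5 CPM in HS-high cells and 41.4 CPM in the other cells, a ratio of 0.687 (0.597 to 0.787). CDKN1C, the related inhibitor p57, had 0.660 (0.545 to 0.794). In the list of cyclins and G1 control, which holds both, 7 of 14 measured genes were above a ratio of 1 and the sum had 1.01. Of 13 measured p53 targets, CDKN1A, DDB2 and FDXR were at least 1.25-fold lower and 0 were higher. Over all measured genes, 1.63% were that far lower and 2.27% higher. With the cell cycle matching described below, the ratios were 0.873 for CDKN1A, 0.821 for DDB2 and 0.810 for FDXR, all short of 1.25-fold. Of 13 measured genes of the histone list, 5 had a ratio above 1 and only HIST1H2AG, at 0.721, was at least 1.25-fold lower. H2AFJ, a histone H2A gene outside that list, had 0.757 (0.636 to 0.895). The histone list sum had a ratio of 0.945, and 0.995 with the cell cycle matching described below. HIST1H4C, a replication-linked histone H4 gene, was at 2111 CPM in HS-high cells and 2630 CPM in the other cells, a ratio of 0.803.

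Phase calls, made on thinned cells, gave the same order. G2 or M was called in 78.8% (76.0 to 81.4%) of HS-high cells and 67.0% (66.0 to 68.0%) of the other cells. S phase was called in 20.5% of HS-high cells and 27.7% of the other cells, and G1 in 0.770% (7 of 909) of HS-high cells and 5.34% of the other cells. Such calls place cells relative to each other, and do not measure how many cells were in each phase.

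Seen from the cycle, the share of HS-high cells was 4.01% (3.16 to 5.02%), 7.42%, 10.1%, 12% and 16.4% (14.8 to 18.2%) from the lowest to the highest quintile of parental cells, 5 groups of equal size ordered by their share of G2 and M list UMIs. By quintiles of S list UMIs the shares were 8.30%, 10.4%, 10.7%, 10.1% and 10.5%. Between these G2 and M quintiles median depth also differed, at 7100 UMIs in the lowest and 9610 in the highest, and its part in the trend was not tested.

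The 4 genes of the score did not follow the cycle equally. Over all parental cells, HSPA1A was at 75.8 CPM in the highest G2 and M quintile and 25.1 CPM in the lowest, a ratio of 3.02 (2.68 to 3.40). The ratio was 2.41 (2.06 to 2.82) for HSPA1B, 1.67 (1.57 to 1.78) for DNAJB1 and 1.40 (1.34 to 1.45) for HSPH1. Outside the score, HSPA8 had 1.61 and CHORDC1 1.53, while HSPB1 had 0.966 (0.928 to 1.00). Across the quintiles by S list UMIs, HSPA1A was at 48.0, 53.4, 50.9, 42.8 and 32.4 CPM, lowest where the S list was highest, while HSPH1 was at 309.3, 350.7, 359.0, 377.7 and 393.3 CPM, highest there.

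**Figure D4:**
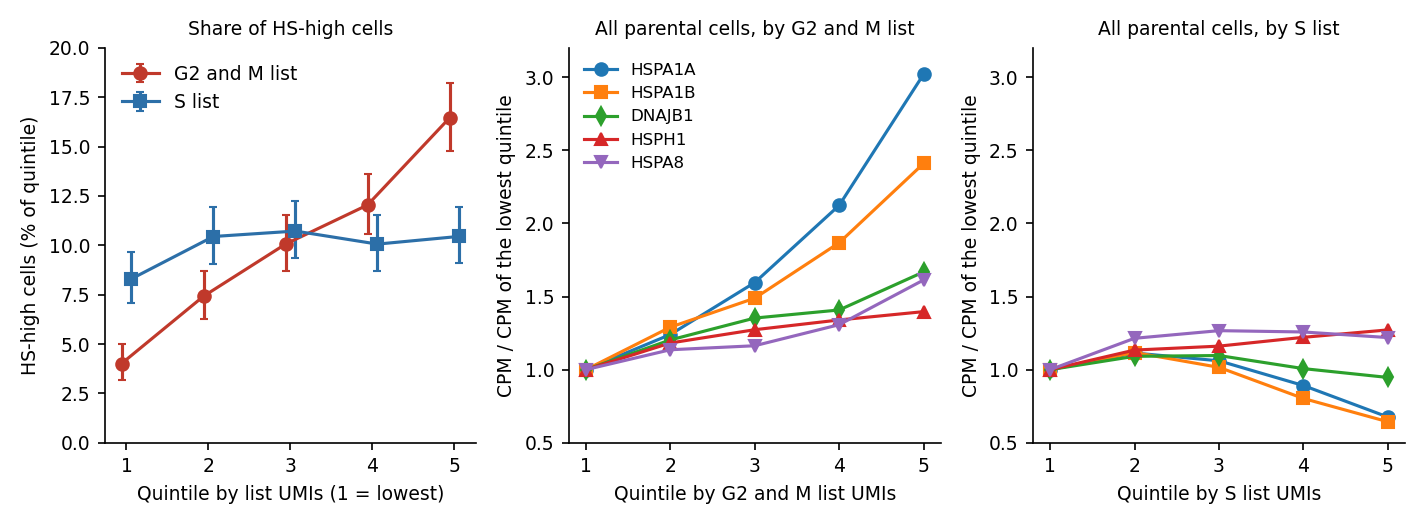
Left, share of HS-high cells (vertical axis, with 95% intervals) by quintiles of parental cells ordered by UMIs of the G2 and M list or the S list. Middle and right, CPM of 5 chaperone genes relative to the lowest quintile, over all parental cells, by the G2 and M list and by the S list. The share goes from 4.01% to 16.4% over the G2 and M quintiles, and HSPA1A reaches 3.02 times its lowest-quintile level there.

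Matching the cell cycle removed most of the difference in cycle genes and part of that in chaperones. Other cells were weighted to the joint spread of HS-high cells over quintiles of S list and quintiles of G2 and M list UMIs, 25 combinations in all. The G2 and M list as a whole then had a ratio of 1.02, with MKI67 at 1.02 and TOP2A at 1.03. The weighting uses these genes, so their ratios near 1 are by construction. PLK1, CCNB1, KIF14 and ASPM are outside the lists used for weighting. Their matched ratios were 1.09 for PLK1, 1.06 for CCNB1, 1.11 for KIF14 and 1.06 for ASPM. CDKN1A had 0.873 and HIST1H4C 0.935.

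The chaperone lists without the genes of the score had a matched ratio of 1.09, against 1.13 before. The matched ratio was 1.07 for the splicing and nuclear RNA list and 1.05 for translation factors. HSPA8 had 1.26, DNAJA1 1.17, HSP90AA1 1.14 and CHORDC1 1.12. At 1.25-fold and 50 CPM, 6 of 2927 genes were higher after matching (0.205%): the 4 of the score, HSPA8 and EED, a Polycomb subunit, at 1.26. The only one lower was KRT81, a hair keratin gene, at 0.797 (0.0342%). Within single G2 and M quintiles, from lowest to highest, HSPA8 had ratios of 1.42, 1.34, 1.32, 1.29 and 1.24. The lowest of these quintiles holds 73 HS-high cells, with HSPA8 at 1438 CPM, against 1011 CPM in the other cells.

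**Figure D5:**
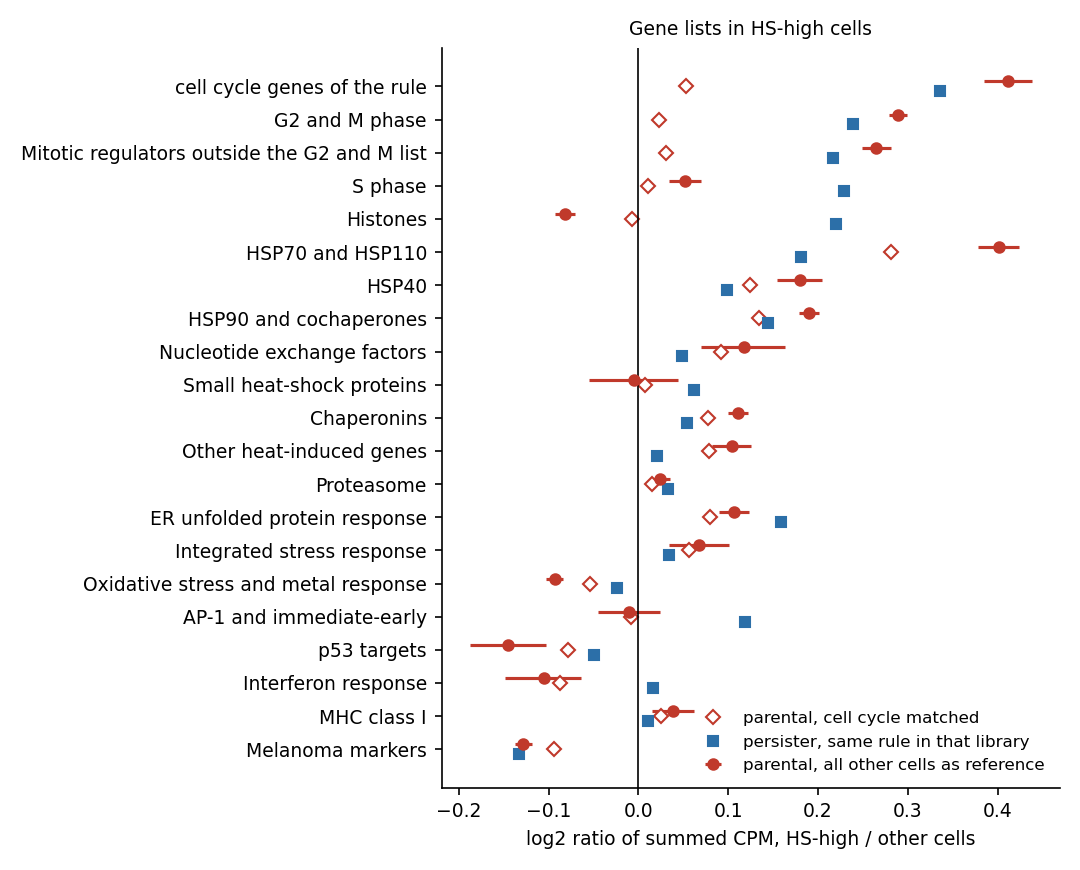
Log2 ratio of summed CPM (horizontal axis), HS-high cells over other cells, for 21 gene lists. Filled circles with 95% counting intervals are parental cells, open diamonds the parental cells with cell cycle matching, and squares the same rule applied in the persister library. The G2 and M list stands at 0.29 before and 0.02 after matching, and the HSP70 and HSP110 list, without the genes of the score, at 0.40 before and 0.28 after, most of it HSPA8.

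Other stress lists stood close to the level of the other cells. The integrated stress response list had a summed ratio of 1.05, with 0 of 16 measured genes past 1.25-fold. Over all measured genes, 2.27% were that far higher and 1.63% lower, so a count of 0 among 16 is near the background. The unfolded protein response of the endoplasmic reticulum had 1.08, and its chaperone HSPA5 1.13. Proteasome genes, which clear damaged proteins, had 1.02, AP-1 and immediate-early genes 0.993 and interferon response genes 0.929. MHC class I genes had 1.03, with B2M at 681.2 CPM in HS-high cells and 675.2 CPM in the other cells. DDIT3, a stress-induced transcription factor, was at 18.5 CPM in HS-high cells and 18.8 CPM in the other cells, and JUN at 24.5 CPM in HS-high cells and 24.6 CPM in the other cells. ATF3, an early stress factor below the 10 CPM limit, had 54 UMIs in HS-high cells and 224 in the other cells. Of those 54, 36 (66.7%) came from 1 cell, which also had 15 UMIs of DDIT3, 9 of JUN and 7 of FOS but only 6 of HSPH1 and 1 of HSPA1A.

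The genes furthest below the other cells were expressed at low levels and in few cells. ANKRD1, a nuclear ankyrin-repeat protein known as a target of the YAP coactivator, was at 5.57 CPM (44 UMIs in 29 cells) in HS-high cells and 15.6 CPM (1159 UMIs in 641 cells) in the other cells. That is a ratio of 0.358 (0.259 to 0.484), and 0.521 with cell cycle matching. CTGF, another YAP target, was at 9.49 CPM in HS-high cells and 14.1 CPM in the other cells. Over all parental cells CTGF was at 7.19 CPM in the highest G2 and M quintile and 25.6 CPM in the lowest. IL24, a cytokine of the interleukin 10 family, had 0.477 (0.345 to 0.643), and 0.725 with matching. SPANXB1, a cancer-testis gene, was at 22.0 CPM in HS-high cells and 41.3 CPM in the other cells, and its ratio was 0.545 with matching. SPANXB1, GAGE1 and GAGE2A belong to families of near-identical copies, so their counts are uncertain. The other genes at least 1.5-fold lower were SLCO4A1-AS1, whose reads may not be separable from those of its antisense partner, CEBPD, ASB6, CDKN1C and MXD4. With cell cycle matching only ANKRD1, SPANXB1 and ASB6 of the 8 stayed past 1.5-fold, and the matched ratios were 0.747 for SLCO4A1-AS1, 0.759 for CDKN1C, 0.791 for MXD4 and 0.808 for CEBPD. ATXN1L, the one gene at least 1.5-fold higher outside the score, had 95 UMIs in HS-high cells and 561 in the other cells, a ratio of 1.60 (1.27 to 1.99). Its log2 ratio of 0.67 was 0.18 with the top 20% of cells, 0.49 at 10000 UMIs or more and 0.33 on split counts, all short of 1.5-fold, and its ratio in the persister library was 1.03. ATXN1L, ANKRD1, IL24, SLCO4A1-AS1, CEBPD, ASB6 and MXD4 were named after their values were seen.

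In the persister library the same 4 genes were far lower, and the same rule picked other levels. Of 5744 persister cells, after leaving out 198 barcodes with at least 2 T cell markers, 3 reached the parental cut (0.0522%, 0.0108 to 0.153%), against 10.0% of parental cells by the rule. Its own top 10%, 574 cells, began at 3.49 per 10000 UMIs. In that top 10%, HSPA1B was at 4.41 CPM and HSPA1A at 3.27 CPM (23 UMIs), so there the choice rested on HSPH1 and DNAJB1. HSPA8 was at 139.2 CPM in the persister top 10% and 117.2 CPM in the other persister cells, both far below the parental levels given above.

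The G2 and M list and the other chaperones were higher in the top-scoring cells of both libraries, while the summed histone list differed in sign. Beyond the score, the chaperone lists had a log2 ratio of 0.17 in HS-high parental cells and 0.10 in the persister top 10%. The G2 and M list had 0.29 in HS-high parental cells and 0.24 in the persister top 10%, where MKI67 had a ratio of 1.34. The share of top-scoring cells was 6.70% (5.32 to 8.30%) in the lowest and 14.6% (12.6 to 16.8%) in the highest persister quintile by G2 and M list UMIs. The S list had a log2 ratio of 0.05 in HS-high parental cells and 0.23 in the persister top 10%. The histone list had -0.08 in HS-high parental cells and 0.22 in the persister top 10%, where HIST1H4C had a ratio of 1.099 (1.076 to 1.123). With cell cycle matching the parental histone value was -0.007. The choosing genes also differed in effect between the libraries. The parental S list had 0.12 when DNAJB1 and HSPH1 chose the cells and -0.088 when HSPA1A and HSPA1B did. None of these differences between the libraries was tested. Among genes at 50 CPM or more in both libraries, leaving out the score, 12 were at least 1.25-fold higher in both. These are 48% of the 25 called in the parental library and 30% of the 40 called in the persister library, where 1.67% of all 2393 such genes were called. In the persister library alone, 1.56% of genes at 50 CPM were higher and 0.213% lower at this fold.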

How the data were processed

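The authors deposited a gene by barcode matrix of UMI counts for each library, whole numbers without normalization. Reads were processed with Cell Ranger 3.1.0 against GRCh38, per the submitters' processing notes; the annotation release is not given in the sources. The filtered parental cells held 7902643 UMIs in HS-high cells and 74494490 in the other cells. Counts were summed per group and scaled to CPM (Python 3.11.15, scipy 1.17.1). Ratios carry exact conditional binomial intervals, sums exact Poisson intervals and shares exact Clopper-Pearson intervals. With 1 library a group and cells chosen by their values, no test was run. Phases were scored in scanpy 1.11.5 on cells thinned to 5000 UMIs.

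The cells, the 34 gene lists used and the settings were chosen with earlier results of these data known. Of the listed symbols, 4 had no row in the files. Named genes were the 4 of the score and 4 cycle genes, the 15 largest and 15 smallest ratios at 20 CPM or more, up to 3 genes of each list by size at 10 CPM or more, and a fixed set. The choice by size left out genes of mitochondrial, ribosomal or clone names, and exceptions picked for their ratios are marked. Genes of the marker lists and of the promoter search were named as well. Gene positions are from GENCODE 29 and promoters from RefSeq. The ratio and interval steps were tested on simulated data. Alternatives changed the share of cells, depth and mitochondrial limits, the choosing genes, the UMIs used, weighting, scaling, the CPM minimum and the fold.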

Additional observations from a re-analysis of the deposited data

Results flagged for a closer look

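ANKRD1 had a log2 ratio of -1.48 in HS-high cells, the top 10% by the 4 heat-shock genes, against the other cells of the parental library. In the persister library, the top 10% of cells by the same genes had a log2 ratio of 1.08 for ANKRD1 against the other persister cells. The opposite signs in the 2 libraries are what singled it out, and the difference was not tested. In the parental library ANKRD1 was at 5.57 CPM in HS-high cells and 15.6 CPM in the other cells. In the persister library it was at 27.8 CPM in the top 10% and 13.1 CPM in the other cells. CTGF and CYR61, also known as YAP targets, differed in the same way by smaller amounts. CTGF had a ratio of 0.673 (0.525 to 0.852, 75 UMIs) in HS-high parental cells and 1.74 (1.48 to 2.03) in the persister top 10%. CYR61 had 0.825 (0.702 to 0.964) in HS-high parental cells and 1.20 (1.08 to 1.32) in the persister top 10%. With cell cycle matching the parental ratios were 0.521 for ANKRD1, 0.842 for CTGF and 0.919 for CYR61. The persister choice rested on HSPH1 and DNAJB1, as described above.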

How the results depend on the processing

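No paired analysis was possible because each group is 1 library. The direction of the chaperone and G2 and M results was the same under every alternative run, and sizes are log2 ratios of summed CPM. Chaperones beyond the score, at 0.17 as reported, were 0.19 with the top 5% of cells, 0.15 with the top 20%, 0.25 at 10000 UMIs or more, 0.15 without the deepest cells, 0.16 when chosen by DNAJB1 and HSPH1, 0.12 by HSPA1A and HSPA1B, 0.15 on split counts, 0.15 as a mean over cells, 0.12 cell cycle matched, 0.15 depth matched and 0.14 scaled by the median of gene ratios. The G2 and M list, at 0.29, was in the same order of settings 0.30, 0.27 and 0.36, then 0.21 by DNAJB1 and HSPH1, 0.34 by HSPA1A and HSPA1B, 0.23 on split counts, 0.28 as a mean, 0.023 cycle matched, 0.26 depth matched and 0.26 scaled. The S list, at 0.05, was 0.076 with the top 5%, 0.034 at 10000 UMIs, 0.026 without the deepest cells, 0.12 by DNAJB1 and HSPH1, -0.088 by HSPA1A and HSPA1B, 0.070 on split counts, 0.010 cycle matched and 0.021 scaled. Its sign thus depended on which genes chose the cells. In the persister library the chaperone value, 0.10, was 0.13 with the top 5%, 0.11 at 10000 UMIs, 0.073 on split counts, 0.085 as a mean, 0.071 cycle matched and 0.043 scaled. HSPA1A and HSPA1B alone gave no value there, since fewer than 10% of persister cells had a UMI of either.

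Counts of genes 1.5-fold higher and lower, 5 and 8 as reported, were larger under several settings: 24 and 42 with the top 5%, 62 and 77 at 10000 UMIs, 24 and 33 on split counts, 22 and 42 at 5 CPM, and 1945 and 1265 with no minimum. They were 13 and 17 when HSPA1A and HSPA1B chose the cells. DNAJB1 and HSPH1 alone gave 3 higher. Lower genes numbered 3 with the top 20%, 5 cycle matched, 14 scaled, 0 at 50 CPM and 2 at 2-fold. With folds added after seeing the data, 174 and 125 passed 1.25-fold at 10 CPM, and 57 and 5 at 50 CPM. SPANXB1 and ASB6 turned to log2 ratios of 0.29 and 0.029 when HSPA1A and HSPA1B chose the cells, and the cause was not tested. Of 1564 values of single genes over all alternatives, 1250 stayed within the counting interval of the reported ratio and 314 did not. The sign changed in 60 of the 1564, and in 16 of the 1156 whose reported interval excluded a ratio of 1. Among these 16, ATF3, whose UMIs came mostly from 1 cell, went from a log2 ratio of 1.18 to -1.10 at 10000 UMIs, -0.92 by HSPA1A and HSPA1B and -2.18 on split counts.

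Depth limits most of these values: an HS-high cell is separated from another by a median of 10 against 4 UMIs.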
